A study of Homo sapiens with 6 samples.

Results

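The genes described here were 57 genes of DNA repair and the DNA damage checkpoint, listed by name. They were studied as RNA targets of hnRNP A1, by PAR-CLIP in HEK293T cells. Of the 16269 binding sites ("clusters") listed over 6 libraries, 92 were named for 31 of these genes, because a transcription start of the gene was the nearest one. When position and strand were checked, 81 of the 92 lay in the gene of that name, and they fell in 27 genes. A cluster can also lie in one gene and be nearest to the start of another. Placed by position and strand alone, 110 clusters lay in 30 of the 57 genes, and 29 of these had been named for the start of another gene. Counts below are of clusters placed by position, and counts of clusters that were both named for the gene and placed in it are given where they are called "named and placed".

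PAR-CLIP marks the places where a protein touches RNA in living cells. Cells are fed 4-thiouridine, a uridine analog that ultraviolet light links to bound protein, and linked positions are read as C instead of T after reverse transcription. HEK293T is a human embryonic kidney line. All cells here were treated with 4-thiouridine and transiently expressed a myc-tagged hnRNP A1 from a plasmid, and complexes were recovered through the tag. The tagged protein was made beside the cells' own hnRNP A1, since no depletion is described. The 3 groups were monomeric wild-type hnRNP A1 (A1), a slower-migrating form of the same wild-type protein that the labels call dimeric (A1-HMW), and the monomeric form of the double mutant R75D/R88D (A1dm), in which salt bridges between the RNA recognition motifs are broken. Each group had 2 libraries. The paper describes 2 independent experiments, with RNA of all 3 forms purified in them. The lists held 5805 and 8100 clusters for A1, 671 and 865 for A1-HMW and 232 and 596 for A1dm. Paired values below are those of replicate 1 and then replicate 2. The deposited lists gave positions but no read numbers, so the depth behind a cluster could not be read from them, and a missing cluster may not have been called for lack of reads.

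Cells meet DNA damage with a set of linked pathways. The kinases ATM and ATR sense breaks and stalled replication and signal through CHEK2 and CHEK1 to hold the cell cycle, broken ends are rejoined by homologous recombination or end joining, and cross-links, mispaired bases and bulky lesions have pathways of their own. hnRNP A1 is an abundant nuclear protein that binds pre-mRNA and is best known for its effects on the choice of splice sites. Many repair genes are long and have many exons, so most of their pre-mRNA is intron.

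Overlapping clusters on the same strand were merged into sites, of which the repair genes held 62. Their RNA sequence was read from the human genome build hg19, 5′ to 3′ on the strand of the gene and written with T for U. Of the 9 sites found in both A1 libraries and also in at least 1 A1-HMW or A1dm library, 8 are shown first, since they recurred over several libraries, and the first 4 shown were found in 4 libraries. Capitals mark the longest unbroken run of A and G in each site.
ATR site 1, chr3:142205313-142205341 (minus strand): gaaatGAGAGAGGGAGGAGGAAGGAAGtt
CHEK1 site 1, chr11:125525974-125526001 (plus strand): AAAAGAGGGAAGGGAAGAGtaaggaagc
XRCC5 site 1, chr2:217001169-217001192 (plus strand): agagtGAGAGGAGGAGGGAAAGGt
MSH6 site 2, chr2:48026242-48026266 (plus strand): AAGGAGGAAAAGAGAAGAGAtgagc
FANCI site 1, chr15:89799070-89799094 (plus strand): aagtGGAAGGAGGAAGAAGGGGAGt
FANCI site 2, chr15:89843538-89843565 (plus strand): agatAAGGAAGGAGAAGAGAGAGAAGAt
MSH6 site 1, chr2:48013348-48013371 (plus strand): aggatGAAAGGAGGAGGAGGGAGc
DDB2 site 2, chr11:47250981-47251003 (plus strand): ggagtGGAGAGAGGGAAGAGGGt
Each was a short stretch of purines, interrupted by 1 to 3 T residues, at which 4-thiouridine could be linked. The capital runs of these 8 sites were 17 to 23 nucleotides long. The next 6 sites, found in both A1 libraries and in no other library, are shown for comparison.
TP53BP1 site 2, chr15:43696262-43696285 (minus strand): aaggaagtAAGGAGGGGGGAGGAt
RIF1 site 1, chr2:152277986-152278007 (plus strand): gagagtGAGAGGAAAAGAGGGc
RAD51C site 1, chr17:56782652-56782677 (plus strand): gatAGGGAGGAAAAGAAGGAGAGAGt
RAD51C site 2, chr17:56785253-56785276 (plus strand): GGGGAGGAAGGAGGAAGAGtgagc
XRCC3 site 1, chr14:104164331-104164351 (minus strand): gaggttGAGAGGAAGGAGGGt
RAD54L site 1, chr1:46720786-46720813 (plus strand): aggaagagtGGGAGGAAAGAAGGGGAGc
These were purine-rich as well, with runs of 14 to 22 nucleotides, and the lengths of the runs overlapped those of the 8 sites above.

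The A1 libraries held 41 and 42 clusters in the repair genes, the A1-HMW libraries 4 and 12, and the A1dm libraries 4 and 7. The mean was 41.5 ± 0.707 for A1, 8 ± 5.66 for A1-HMW and 5.5 ± 2.12 for A1dm (SD, n = 2). The A1 values did not overlap those of either other group, while the A1-HMW and A1dm values overlapped. The named and placed clusters numbered 29 and 32, 3 and 9, and 3 and 5. The whole lists of A1-HMW and A1dm were also much shorter than those of A1. As a share of the clusters in all protein-coding genes, the repair genes took 1.01% and 0.784% in A1, 0.803% and 1.98% in A1-HMW, and 2.30% and 1.67% in A1dm. The 95% Wilson intervals of these shares ran from 0.743% to 1.36% and from 0.580% to 1.06% in A1, from 0.313% to 2.05% and from 1.13% to 3.42% in A1-HMW, and from 0.898% to 5.76% and from 0.812% to 3.41% in A1dm. Those of A1 replicate 2 and A1-HMW replicate 2 did not overlap, and all other pairs did. The intervals cover counting error only. With 2 libraries against 2, an exact permutation test cannot give a two-sided p below 0.333, and no test was made.

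**Figure D1:**
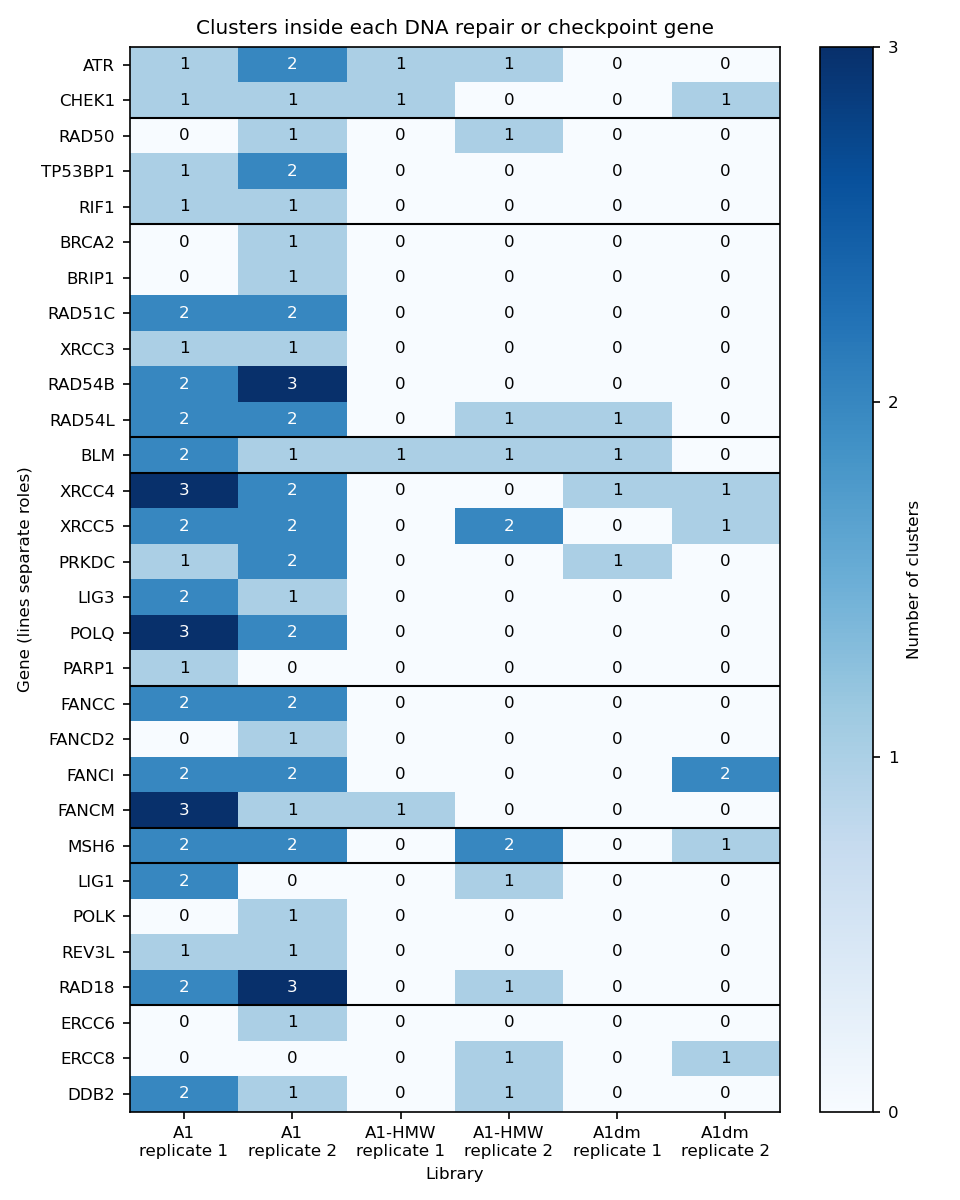
Number of clusters in the body of each repair gene with at least 1 cluster (rows, grouped by role) in each of the 6 libraries (columns), with colour for the number. The A1 columns hold 41 and 42 clusters, the A1-HMW columns 4 and 12 and the A1dm columns 4 and 7.

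A1 clusters were found in a larger share of the repair genes than of genes at large. The genes were chosen with earlier results of these data known. The shares and densities below therefore describe this list and are not a test of enrichment. In both A1 libraries, 21 of 57 repair genes held a cluster (36.8%, Wilson interval 25.5% to 49.8%), beside 11.3% of 20162 protein-coding genes. In either A1 library 29 did (50.9%, interval 38.3% to 63.4%), beside 21.6% of all. In A1-HMW it was 12 genes (21.1%, interval 12.5% to 33.3%), beside 4.54% of all, and in A1dm 9 genes (15.8%, interval 8.54% to 27.4%), beside 2.81%. Single libraries held clusters in 23 and 27 of the genes for A1, 4 and 10 for A1-HMW and 4 and 6 for A1dm, so most of the A1-HMW genes came from replicate 2. Named and placed clusters were found in both A1 libraries for 15 genes (26.3%, interval 16.7% to 39.0%), beside 7.95% of all.

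Length moved with these counts. The repair genes had a median length of 78.3 kb, beside 27.2 kb for all protein-coding genes, and the median was 94.2 kb for the 30 genes with a cluster and 42.9 kb for the 27 without one. Per megabase of gene, the repair genes held 8.42 and 8.63 A1 clusters, beside 3.10 and 4.10 for all protein-coding genes. For A1-HMW the densities were 0.822 and 2.46 beside 0.382 and 0.472, and for A1dm 0.822 and 1.44 beside 0.138 and 0.324. The density of the repair genes was the higher in each of the 6 libraries. The genes' expression in these cells was not measured here, and its part in these counts was not tested.

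**Figure D2:**
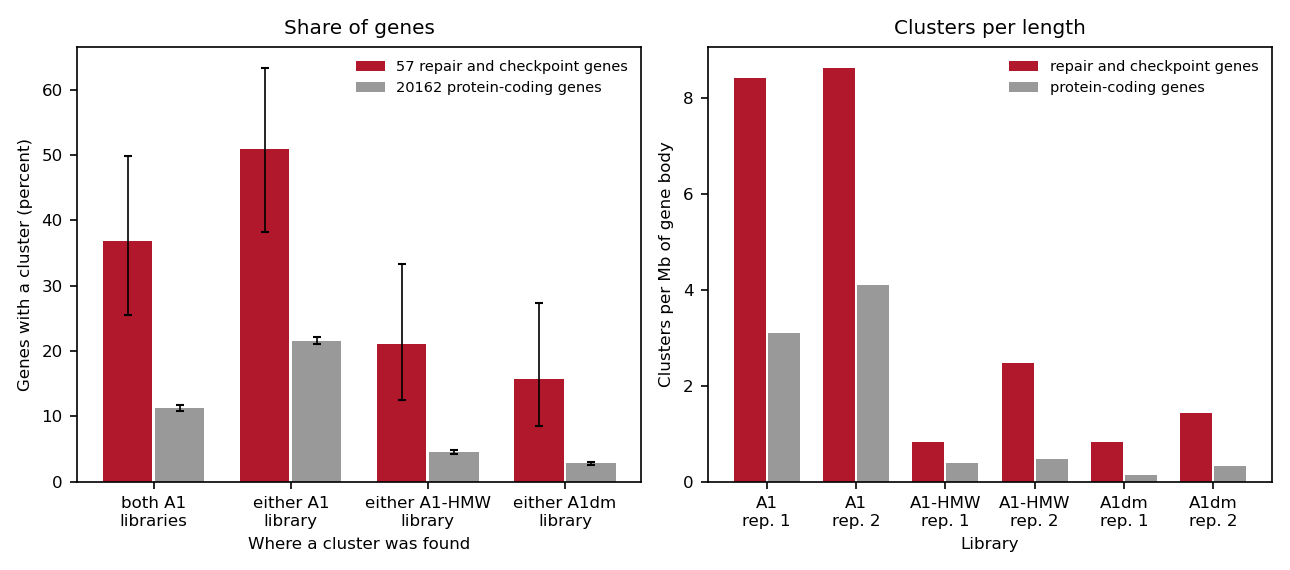
Share of genes with a cluster (left, percent with 95% Wilson intervals) and clusters per megabase of gene in each library (right) for the 57 repair genes and for all protein-coding genes. The repair genes are higher in each pair, with 36.8% beside 11.3% for a cluster in both A1 libraries and 8.42 beside 3.10 clusters per megabase in A1 replicate 1. The repair genes were chosen with earlier results of these data known.

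In the damage kinases, ATR and CHEK1 were bound in both A1 libraries, while ATM (146.1 kb) and CHEK2 held no cluster in any library. ATR, the kinase that answers stalled replication, held 1 and 2 clusters in A1, 1 and 1 in A1-HMW and none in A1dm. Its first site, printed above, was the 1 of the 15 A1-HMW sites found in both A1-HMW libraries, beside 113 of 992 in all protein-coding genes. It lay in intron 35 of 46, 1188 nucleotides before the next exon of the representative transcript, and 36 nucleotides separated it from a second site, found in A1 replicate 2 alone. CHEK1, the kinase that ATR activates to stop the cell cycle, held 1 cluster in each A1 library, in A1-HMW replicate 1 and in A1dm replicate 2. All 4 lay at 1 site in the 3′ UTR, in exon 13 of 13. The start nearest to it was that of a small RNA pseudogene, so the lists did not name it for CHEK1.

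Among the 8 genes that recognise breaks and pass on the signal, RAD50, TP53BP1 and RIF1 held clusters. RIF1 and TP53BP1 (53BP1) act together to protect broken ends from resection. RIF1 held 1 cluster in each A1 library, at 1 site in intron 7 of 35. TP53BP1 held 1 and 2 A1 clusters. Its recurrent site lay in the 3′ UTR, in exon 28 of 28, and a gene on the opposite strand, TUBGCP4, also covers it. RAD50, a subunit of the complex that tethers and trims broken ends, held 1 cluster in A1 replicate 2 and 1 in A1-HMW replicate 2, at the same place in intron 2 of 24. Another gene annotated on the same strand also covers this place. The other 2 subunits of the RAD50 complex, MRE11A and NBN, held none, nor did MDC1, RNF8 and RNF168. No A1dm cluster lay in these 8 genes.

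Homologous recombination copies an intact template to mend a break. Of its 12 genes, 6 held clusters (BRCA2, BRIP1, RAD51C, XRCC3, RAD54B and RAD54L), with 7 and 10 clusters in A1, 0 and 1 in A1-HMW and 1 and 0 in A1dm. RAD54L and RAD54B, DNA-dependent ATPases of this pathway, held 5 of the 10 sites. RAD54L held 2 clusters in each A1 library, 1 in A1-HMW replicate 2 and 1 in A1dm replicate 1. The A1-HMW and A1dm clusters lay at its second site, 66 nucleotides after an exon in intron 9 of 17. RAD54B held 2 and 3 A1 clusters, in introns 2 and 6, and none from the other groups. FSBP, a gene on the same strand, also covers the site in intron 6, so strand does not separate the 2 genes there. RAD51C, which acts in strand exchange, held 2 clusters in each A1 library, at a pair of sites 2575 nucleotides apart in intron 4 of 8. XRCC3, its partner, held 1 in each A1 library, at a site in the 3′ UTR that KLC1 covers on the opposite strand.

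BRCA2, the product of a breast cancer susceptibility gene and central to this pathway, held a single cluster in A1 replicate 2, in coding exon 20 of 27. BRIP1, a helicase that binds BRCA1, held a single cluster in the same library, in intron 16. BRCA1, BARD1, PALB2, RAD51D, XRCC2 and RAD52 held none. BRCA1 is 126.0 kb long.

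Of the 3 helicases, WRN and RECQL held no cluster, and BLM, which undoes recombination intermediates, held 5 sites. They gave 2 and 1 clusters in A1, 1 and 1 in A1-HMW and 1 and 0 in A1dm. BLM was the 1 gene with clusters in both A1 libraries but at no shared site. Its first site, in intron 1, was found in A1 replicate 1 and in A1-HMW replicate 1, and each of the others came from 1 library. The A1dm cluster lay in coding exon 21 of 22. The site of A1-HMW replicate 2, in intron 19, held 44.4% purines and no purine run over 2 nucleotides.

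End joining and break ligation had the most sites, 17 in 6 of 8 genes, with 12 and 9 clusters in A1, 0 and 2 in A1-HMW and 2 and 2 in A1dm. This ranking does not allow for gene length, and the role includes long genes such as XRCC4 (276.3 kb) and PRKDC (187.1 kb). XRCC5 (Ku80), a subunit of the ring that caps broken ends, held 2 and 2 A1 clusters, 0 and 2 A1-HMW clusters and 0 and 1 A1dm clusters. Its first site was found in 4 libraries and lay in intron 10 of 20, 618 nucleotides before the next exon. Its partner XRCC6 (Ku70) held none. XRCC4, the scaffold of the ligase that seals joined ends, held 3 and 2 A1 clusters, none from A1-HMW and 1 and 1 from A1dm. They were spread over 5 sites in its long introns, 3 of them more than 10 kb from any annotated exon, and the A1dm sites were not found in A1. LIG4, the ligase itself, held none.

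PRKDC, the kinase that Ku recruits, held 1 and 2 A1 clusters and 1 and 0 A1dm clusters at 3 intronic sites. POLQ, the polymerase of an alternative joining route, held 3 and 2 A1 clusters at 3 intronic sites, 2 of them in both A1 libraries. LIG3, a ligase of single-strand break repair, held 2 and 1, with the recurrent site 105 nucleotides after an exon in intron 8. PARP1, which marks breaks with poly(ADP-ribose), held 1 cluster in A1 replicate 1 that crossed into coding exon 5 of 23, with 11 nucleotides in the intron and 13 in the exon.

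The Fanconi anaemia genes mend cross-links between DNA strands. Of 6 genes, FANCC, FANCD2, FANCI and FANCM held 8 sites, with 7 and 6 clusters in A1, 1 and 0 in A1-HMW and 0 and 2 in A1dm. FANCI, of the pair that is ubiquitinated at a cross-link, held 2 clusters in each A1 library, none in A1-HMW, and 0 and 2 in A1dm. Both of its sites, in intron 2 and in coding exon 26 of 38, were thus covered by A1dm replicate 2. Its partner FANCD2 held 1 cluster, in A1 replicate 2. FANCM, a translocase that remodels stalled forks, held 3 and 1 A1 clusters and 1 and 0 A1-HMW clusters. FANCC, of the core complex, held 2 clusters in each A1 library, at 2 sites that lay 180596 nucleotides apart. FANCA and FANCL held none.

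In mismatch repair, MSH6 held clusters and MSH3 (222.2 kb) and PMS2 did not. MSH6, which recognises mispaired bases, held 2 and 2 A1 clusters, 0 and 2 A1-HMW clusters and 0 and 1 A1dm clusters. One site lay in intron 1 of 9. The other, found in 4 libraries, lay in coding exon 4 of 10, 492 nucleotides after the start of this 2545-nucleotide exon.

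In replication and damage tolerance, LIG1, POLK, REV3L and RAD18 held 8 sites, with 5 and 5 clusters in A1, 0 and 2 in A1-HMW and none in A1dm. RAD18, the ligase that ubiquitinates PCNA at stalled forks, held 2 and 3 A1 clusters and 0 and 1 A1-HMW clusters at 4 sites. The 2 RAD18 sites found in both A1 libraries lay outside its representative transcript, within the longer annotated gene. They were 5312 and 21914 nucleotides from the nearest annotated exon. REV3L, the catalytic subunit of polymerase zeta, held 1 and 1 at a site in intron 4 of 31. LIG1, which joins Okazaki fragments, held 2 and 0 A1 clusters and 0 and 1 A1-HMW clusters. Its first site crossed the end of coding exon 6 of 28, with 22 nucleotides in the exon and 6 past it. POLK, a polymerase that copies past lesions, held 1 cluster in A1 replicate 2, and POLH held none.

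Nucleotide excision removes bulky lesions such as those of ultraviolet light. Of its 8 genes, ERCC6, ERCC8 and DDB2 held 5 sites, with 2 and 2 clusters in A1, 0 and 2 in A1-HMW and 0 and 1 in A1dm. DDB2, which finds ultraviolet damage in chromatin, held 2 and 1 A1 clusters and 0 and 1 A1-HMW clusters. Its second site, in intron 3 of 9, was the 1 site of this group found in both A1 libraries. ERCC6 and ERCC8 (CSB and CSA) couple repair to transcription. ERCC6 held 1 cluster in A1 replicate 2, 41 nucleotides after an exon. ERCC8 held 1 cluster in A1-HMW replicate 2 and 1 in A1dm replicate 2, at different sites, and was the 1 gene with clusters but none in A1. ERCC2, ERCC3, XPA, XPC and DDB1 held none.

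Most sites were intronic. Of the 62 sites, 50 touched no exon of any annotated transcript of their gene and are called intronic. A further 6 touched coding sequence, 3 lay in 3′ UTRs and 3 in exons of noncoding transcripts. The intronic sites lay a median of 1058 nucleotides from the nearest annotated exon (range 41 to 21914), and 10 of them within 300 nucleotides. On the representative transcripts, 4 sites lay in intron 1, and 2 sites, both in RAD18, lay outside them. The largest distance, 21914 nucleotides, was that of 1 of these RAD18 sites. In the A1 libraries 80.5% and 83.3% of clusters in the repair genes were intronic, beside 83.8% and 84.8% in all protein-coding genes. In A1-HMW the shares were 75.0% and 83.3%, beside 79.1% and 82.4%. In A1dm they were 75.0% and 42.9%, of 4 and 7 clusters, beside 66.7% and 62.5%. Over both libraries, 68 of 83 A1 clusters (81.9%, Wilson interval 72.3% to 88.7%), 13 of 16 A1-HMW clusters (81.3%, interval 57.0% to 93.4%) and 6 of 11 A1dm clusters (54.5%, interval 28.01% to 78.7%) were intronic, and the intervals overlapped. A site found in both libraries of a group was counted once for each. These intervals treat such clusters as independent and do not measure variation between libraries, so no difference between groups is read from them.

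**Figure D3:**
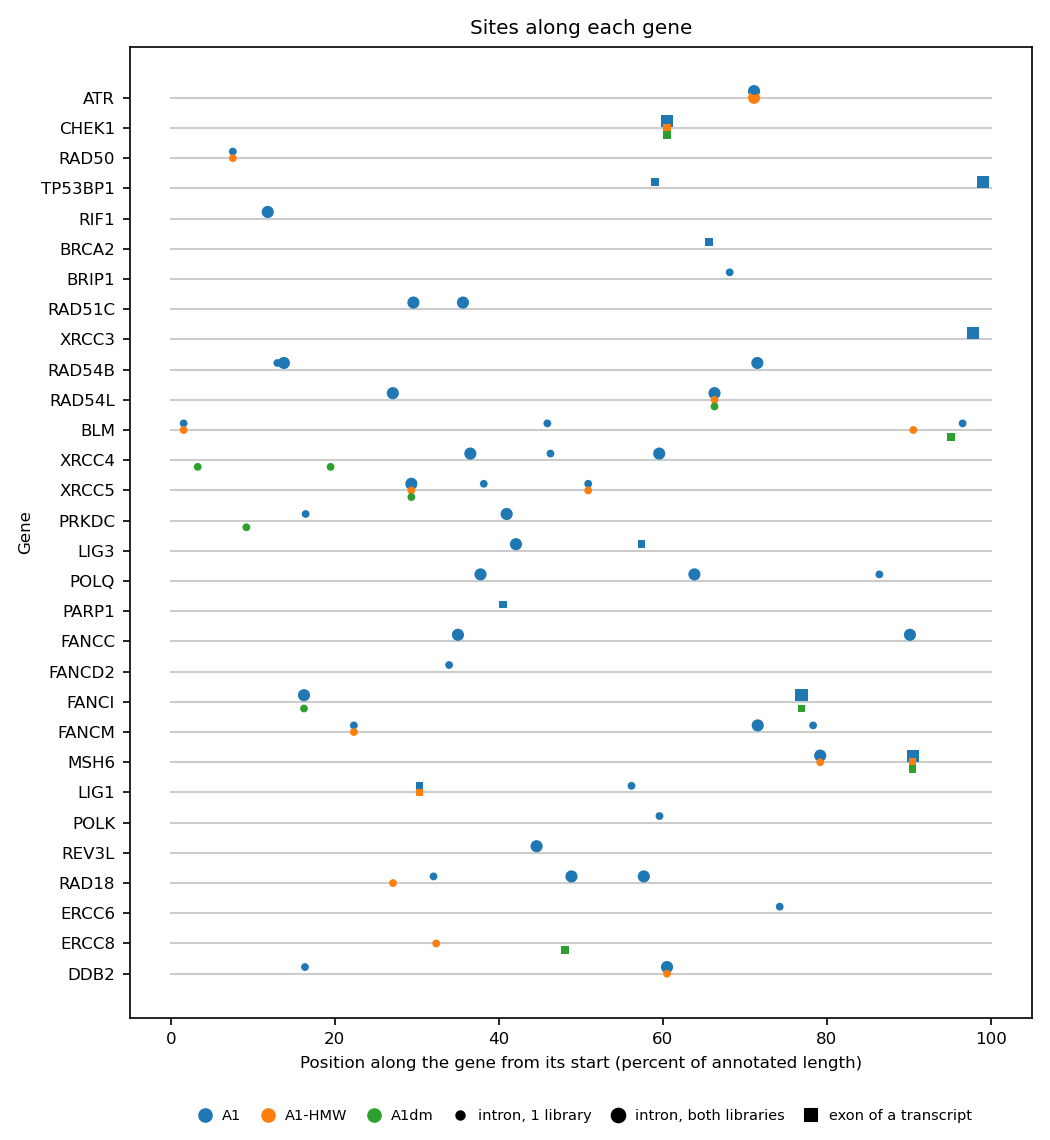
Position of each site along its gene (x axis, percent of gene length from the 5′ end; 1 row per gene), with colour for the group, large symbols for sites in both libraries of that group, small symbols for sites in 1, and squares for sites in an exon of any transcript. The 62 sites are spread along the genes, with 33 of them nearer the 5′ end than the 3′ end.

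The A1 sites of the repair genes often recurred. Of the 54 sites with an A1 cluster, 29 were found in both A1 libraries (53.7%, Wilson interval 40.6% to 66.3%), beside 34.3% (interval 33.2% to 35.4%) in all protein-coding genes. Of the 41 A1 sites that were named and placed it was 20 (48.8%, interval 34.25% to 63.5%), beside 35.8% (interval 34.5% to 37.1%), and these intervals overlapped. All these intervals treat sites as independent, though some lie in the same gene, and do not measure variation between libraries. No difference is therefore read from them. The 29 sites found in both A1 libraries lay in 20 genes, 24 of them in introns, 2 in coding exons and 3 in 3′ UTRs. The 3 sites in 3′ UTRs, in CHEK1, TP53BP1 and XRCC3, were all found in both A1 libraries. Of all 62 sites, 28 came from 1 library, 9 from 3 or more and 5 from 4, and none was found in 5 or 6. Of 7555 sites in all protein-coding genes, 4849 came from 1 library and 646 from 3 or more. Only 173 of the 7555 came from 4 or more and 39 from 5 or more, so sites in 5 or 6 libraries were rare throughout.

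A1-HMW and A1dm each kept a minority of the recurrent A1 sites. Of the 29, A1-HMW covered 7 (24.1%, Wilson interval 12.2% to 42.1%), in ATR, CHEK1, RAD54L, XRCC5, MSH6 (both sites) and DDB2, beside 21.3% of such sites in all protein-coding genes. A1dm covered 6 (20.7%, interval 9.85% to 38.4%), in CHEK1, RAD54L, XRCC5, FANCI (both sites) and MSH6, beside 8.64%. The sites of CHEK1, RAD54L, XRCC5 and the coding exon of MSH6 were covered by both. These were 4 of the 29, beside 103 of 2407 in all protein-coding genes. By library, A1-HMW covered 2 and 6 of the 29 and A1dm 1 and 5, so replicate 2 carried most of either count. For A1-HMW these were 6.90% and 20.7% of the sites, beside 11.3% and 13.9% in all protein-coding genes, so the repair genes were below the others in replicate 1 and above them in replicate 2. For A1dm they were 3.45% and 17.2%, beside 3.12% and 6.15%, so the difference in the pooled share came from replicate 2. Of the 25 sites found in 1 A1 library, A1-HMW covered 5 (20%, interval 8.86% to 39.1%), beside 4.53% in all protein-coding genes, and A1dm covered none, beside 2.04%.

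Read the other way, 12 of the 15 A1-HMW sites (80.0%, Wilson interval 54.8% to 93.0%) and 6 of the 11 A1dm sites (54.5%, interval 28.01% to 78.7%) overlapped an A1 site. Over all protein-coding genes these shares were 72.7% and 53.0%. The 3 A1-HMW sites without A1 lay in BLM, RAD18 and ERCC8, and the 5 A1dm sites without A1 in BLM, XRCC4 (2 sites), PRKDC and ERCC8. Each of these 8 sites was found in 1 library. None of the 11 A1dm sites was found in both A1dm libraries, beside 23 of 570 in all protein-coding genes, so few were to be found in either. Clusters of both A1-HMW and A1dm lay in 6 genes, CHEK1, RAD54L, BLM, XRCC5, MSH6 and ERCC8, and at a shared site in 4 of them. The number of such genes was not set against all protein-coding genes, so it is not read as particular to the repair genes.

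Purine runs were common to the repair genes and to the lists as a whole. A run of at least 12 A or G was present in 58 of the 62 sites (93.5%), beside 93.3% of 11406 sites over all chromosomes. The longest run was a median of 18 nucleotides (range 2 to 24), and a median of 91.7% of the bases were purines. All 29 sites found in both A1 libraries had such a run, with a median of 19 nucleotides (range 14 to 24), as did 24 of the 25 found in 1 A1 library (median 18, range 8 to 24). Among the 8 sites without A1 it was 5 (median 15.5, range 2 to 19). The 4 sites without the run were BLM site 3 from A1-HMW, XRCC4 site 2 and PRKDC site 1 from A1dm, and LIG1 site 2 from A1. A run was present in 14 of 15 A1-HMW sites and 9 of 11 A1dm sites.

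Short motifs were counted on the RNA strand of each site. The letters GAGGAA stood in 21 of the 62 sites (33.9%), beside 31.7% of all sites, and AGGAAG in 26 (41.9%), beside 31.2%. These motifs overlap each other in AGGAA and can share bases. TAGG, the core of the classical hnRNP A1 element UAGG, stood in 4 sites (6.45%), beside 5.15% of all. In 56 of the 62 sites the last base was a pyrimidine. This was not set against all sites, so it is not read as a feature of the repair genes. Purines made up 90.2% and 91.3% of the pooled bases of the clusters in the repair genes in A1, 91.9% and 87.9% in A1-HMW and 85.6% and 86.5% in A1dm. Over the whole lists the values were 90.7% and 90.7%, 87.4% and 88.2%, and 81.6% and 78.5%.

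**Figure D4:**
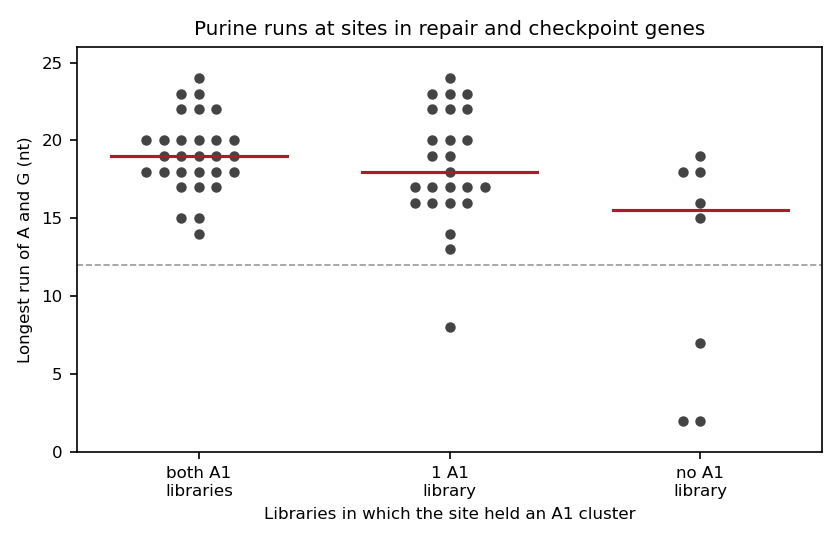
Longest run of A and G (y axis, nucleotides) in each of the 62 sites, with the sites grouped by whether they were found in both A1 libraries, 1 A1 library or none (points, sites; red lines, medians; dashed line, 12 nucleotides). The medians are 19, 18 and 15.5 nucleotides, and the 2 sites with a run of 2 nucleotides are both without A1.

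A second list of 62 repair and checkpoint genes, none of them among the 57, was counted in the same way. In both A1 libraries 12 of them held a cluster (19.4%, beside 11.3% of all protein-coding genes), and in either A1 library 20 did (32.3%, beside 21.6%). A1-HMW clusters lay in 2 of these genes (3.23%, beside 4.54%) and A1dm clusters in 1 (1.61%, beside 2.81%). The genes with most clusters were APTX, which trims blocked DNA ends, with 3 and 3 A1 clusters and 0 and 2 A1-HMW clusters, FANCB of the Fanconi core complex with 2 and 6 A1 clusters, and RAD23B, a partner of XPC, with 1 and 5. UIMC1 (RAP80), which brings BRCA1 to ubiquitin at breaks, held 1 and 2 A1 clusters and 1 and 0 A1-HMW clusters. CLSPN, the adaptor between ATR and CHEK1, held 1 and 2 A1 clusters, as did RAD51AP1, which acts in recombination. The shares in A1-HMW and A1dm were thus above those of all protein-coding genes in the 57. In this list they rested on 2 genes and 1 gene, too few to tell them from those of all protein-coding genes.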

How the data were processed

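PAR-CLIP libraries of HEK293T cells (3 groups, 2 libraries each) were used. According to the methods, the authors trimmed adapters with BBduk, removed ribosomal RNA, mapped with STAR, analyzed T-to-C substitutions with wavClusteR and generated their peaks with PARalyzer; the submitters' processing notes name Bowtie and hg19. Per the file headers, the lists hold wavClusteR clusters annotated with HOMER, which are not the study's PARalyzer peaks. The deposited score column was 0 throughout, so depth could not be read from these lists. Read numbers that the study gives for clusters of its own were not analysed here. The start in each cluster identifier, 1 nucleotide below the start column, was used.

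The genes, roles and lists were chosen with earlier results of these data known. Clusters were placed by strand with GENCODE 44 lifted to hg19, with the exons of all transcripts taken before introns, and overlaps of at least 1 nucleotide were merged into sites (Python 3.11.15, pysam 0.24.0, samtools 1.23.1, matplotlib 3.10.9). The placing and merging were tested on simulated data. Genes were named if they held a site in both A1 libraries, any A1-HMW or A1dm cluster or the most A1 clusters, and others by their counts or as having none. Printed sites exclude one chromosome, and the sequence of 1 further site is not reported here. Alternatives were membership, strand, placement, cluster start, overlap, the authors' annotation and leaving out each library. Shares have 95% Wilson intervals. No test was made.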

Additional observations from a re-analysis of the deposited data

How the results depend on the processing

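Counts of named and placed clusters were recomputed under 63 alternative settings over 10 results, and 54 of the values stayed within 1.5 times the value reported or, for the intronic share of A1, within 1 SD between its libraries. The others were these. Leaving out an A1-HMW library gave 3 to 9 clusters per library in place of 6, and 3 to 9 genes with an A1-HMW cluster in place of 10. Leaving out an A1dm library gave 3 to 4 genes with an A1dm cluster in place of 7. Of the 20 recurrent A1 sites, A1-HMW covered 4, or 1 to 4 without one of its libraries, and 7 of 29 when clusters were placed by position alone. A1dm covered 4, or 1 to 3 without one of its libraries. In each case the lowest value was the one without replicate 2. The intronic share of A1 was 88.5%, 81.9% with clusters placed by position alone and 77.05% with the annotation of the deposited lists. Leaving out an A1 library gave no value for results that need both. No paired analysis was made, since no test was run. The paper describes A1-HMW as an additional band in the material precipitated with wild-type protein. It reports 2 independent experiments that gave RNA of all 3 forms. Libraries of different groups are thus linked through shared experiments, but the labels do not say that a replicate number marks 1 experiment. Within each replicate number A1 held more clusters in the repair genes than A1-HMW or A1dm did. Lists of 232 to 8100 clusters set the precision, and from these lists alone a site absent from A1-HMW or A1dm could not be told from one sequenced too shallowly.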

Other observations

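The lists named 11 clusters for repair genes that lay outside those genes or on the other strand, and they were left out of the counts above. The cluster named for ATM in both A1 libraries lay in an intron of NPAT, on the opposite strand and 21784 nucleotides from ATM. The cluster named for ERCC3 in both A1 libraries lay in the 3′ UTR of MAP3K2, and the cluster named for BRIP1 in A1 replicate 1 in the 3′ UTR of INTS2. The cluster named for FANCI in both A1 libraries lay in an intron of POLG, the mitochondrial DNA polymerase, on the opposite strand. The 1 A1dm cluster among them was antisense within FANCA. The other clusters, named for ERCC6, FANCL and POLQ, lay 2898, 37269 and 2837 nucleotides from the gene, each in 1 A1 library. ATM, ERCC3, FANCA and FANCL held no cluster of their own, so a count by name alone would give these genes a cluster.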
